A study of Mus musculus with 6 samples.

Results

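Bone and calcified cartilage mineralize when phosphate is plentiful and inorganic pyrophosphate, which blocks crystal growth, is scarce. The 7 genes described here handle both ions: Enpp1, Ank, Alpl, Phospho1, Slc20a1, Slc20a2 and Nt5e, found by symbol among the 30406 genes listed for every library. Enpp1 encodes the membrane enzyme that releases pyrophosphate from extracellular ATP, leaving AMP, and Ank encodes a membrane protein required for the export of ATP and pyrophosphate. Alpl encodes tissue-nonspecific alkaline phosphatase, which splits pyrophosphate into phosphate, and Phospho1 encodes a phosphatase that frees phosphate inside matrix vesicles. Slc20a1 and Slc20a2 encode the sodium-dependent phosphate transporters PiT-1 and PiT-2, and Nt5e encodes CD73, which turns AMP into adenosine. Loss of ENPP1 causes arterial calcification in infancy and loss of ALPL causes hypophosphatasia, a failure of bone mineralization.

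The nuclei came from the tibial periosteum, the cell layer on the bone surface that supplies the fracture callus, of wild-type C57BL/6ScNj mice (C57BL6 in the labels), 12 weeks old, males and females mixed. The tibia was uninjured, or its mid-shaft had been cut in open surgery and left without fixation, and the periosteum was scraped off, after fracture together with the hematoma. There were 2 libraries of uninjured periosteum, 2 at day 3 after fracture, 1 at day 5 and 1 at day 7. Each uninjured library pooled 4 mice and each fracture library 4 to 9 mice, so a library is a pool and values of single animals were not analysed here. Nuclei were sorted on a DNA stain and profiled by droplet single-nucleus RNA-seq, in which each RNA molecule is counted once by its molecular identifier (UMI).

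The 6 libraries held 13551 barcodes, 655 to 4712 per library, with 1499281 to 29796296 UMIs. The filter left 8067 nuclei, 644, 1174, 753, 1723, 2422 and 1351 in the order uninjured 1, uninjured 2, day 3 replicate 1, day 3 replicate 2, day 5 and day 7, which is the order of every series of values below. Median UMIs per barcode ran from 892 at day 7 to 2806 at day 5. Of the barcode sequences, 4 occurred in more than 1 library among the nuclei retained. Levels are given as UMIs of a gene per 1000000 UMIs of a population (CPM), with exact 95% Poisson intervals that cover counting error only.

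Populations were named from markers after clustering with the 7 genes left out: stromal nuclei (2860), immune-like (2201), myogenic (1784), endothelial-like (785), pericyte/SMC-like (221), Schwann-like (86), osteoclast-like (77) and adipocyte-like (53). The stromal nuclei comprised 523 SSPC-like (skeletal stem/progenitor cells), 87 fibroblast-like, 1021 IIFC-like (injury-induced fibrogenic cells), 411 chondrocyte-like, 129 osteoblast-like and 152 tendon-like nuclei. A cluster of 276 nuclei lay near both the IIFC and the osteoblast markers and is called IIFC/osteoblast-like. Its leading genes were Fat3, Efna5 and Ptprd. A cluster of 261 shallow nuclei is called IIFC/fibroblast-like. The SSPC markers Pi16, Dpp4, Cd34, Ly6a and Opcml together stood at 4949 and 3374 CPM in uninjured SSPC-like nuclei and at 126, 314, 272 and 210 CPM after fracture, so the cells grouped under that name were not alike before and after injury. Pooled over the libraries, the osteoblast-like nuclei carried Ibsp (2146 CPM), Phex (939 CPM) and Dmp1 (228 CPM) but no UMI of Sost, a mature osteocyte gene. The chondrocyte-like nuclei carried 252 UMIs of Col10a1, a hypertrophic marker, of which 151 were at day 5 and 96 at day 7. Of the other hypertrophic markers counted, Ihh was at 39.3 CPM there, against 2.34 CPM over all nuclei. Mmp13 was not raised there, at 13.5 against 15.6 CPM, and stood at 211 CPM in IIFC/osteoblast-like nuclei.

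The genes lie on GRCm38 at chr10:24637914-24712159 (Enpp1, minus strand), chr15:27466677-27594909 (Ank, plus), chr4:137741733-137796384 (Alpl, minus), chr11:95824499-95832140 (Phospho1, plus), chr2:129198764-129211616 (Slc20a1, plus), chr8:22476788-22569612 (Slc20a2, plus) and chr9:88327197-88372092 (Nt5e, plus). Their spans differ from 7642 bases for Phospho1 to 128233 bases for Ank. Because intronic reads were counted, CPM is compared between populations for 1 gene and not between genes. Alpl has more than 1 annotated start, and counts per gene do not separate the transcripts. The RefSeq windows (GRCm38.p6) of 250 bases before the starts of Enpp1 and Alpl are shown because these genes, of opposite action on pyrophosphate, gave the main contrast between populations; each is read 5′ to 3′ on the gene's strand. Capitals mark the RUNX core TGTGGT and the GC box GGGCGG on either strand (reverse complements ACCACA and CCGCCC).
Enpp1, chr10:24712160-24712409, minus strand: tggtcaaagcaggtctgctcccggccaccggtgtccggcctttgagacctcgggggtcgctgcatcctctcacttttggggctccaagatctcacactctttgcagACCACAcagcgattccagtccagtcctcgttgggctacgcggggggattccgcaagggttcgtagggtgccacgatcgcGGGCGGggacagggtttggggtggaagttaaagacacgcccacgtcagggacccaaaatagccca
Alpl, outer start, chr4:137796385-137796634, minus strand: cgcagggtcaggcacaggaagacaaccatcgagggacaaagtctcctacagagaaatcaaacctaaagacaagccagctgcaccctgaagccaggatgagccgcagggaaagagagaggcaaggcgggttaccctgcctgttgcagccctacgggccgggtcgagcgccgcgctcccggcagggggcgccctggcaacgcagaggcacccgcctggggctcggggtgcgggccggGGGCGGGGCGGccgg
Alpl, inner start, chr4:137766476-137766725, minus strand: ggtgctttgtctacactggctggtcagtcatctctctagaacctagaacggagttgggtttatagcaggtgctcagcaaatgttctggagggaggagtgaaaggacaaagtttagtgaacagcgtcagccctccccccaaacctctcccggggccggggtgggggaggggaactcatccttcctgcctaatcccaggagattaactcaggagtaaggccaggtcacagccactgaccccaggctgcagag
The Enpp1 window held 1 RUNX core and 1 GC box, the outer Alpl window held 2 GC boxes and no RUNX core, and the inner Alpl window held neither. Among 32851 promoter windows of 250 bases, 14.0% held the RUNX core and 32.7% the GC box, so these matches are common and serve as description only.

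Pooled over the libraries, Enpp1 lay mostly in stromal nuclei. It had 3418 UMIs in 1145 of 8067 nuclei (14.2%), and 81.0% of them lay in stromal nuclei, which held 37.0% of all UMIs. By library, stromal nuclei held 13 of 18, 53 of 108, 42 of 74, 198 of 561, 2183 of 2334 and 279 of 323 Enpp1 UMIs. In day 3 replicate 2 the immune-like nuclei held more than the stromal ones, 305 UMIs. Osteoblast-like nuclei had the highest pooled level at 536 CPM (95% interval 459 to 622), followed by IIFC-like nuclei at 370.5 CPM (354 to 387) and tendon-like nuclei at 257 CPM (222 to 297). IIFC/fibroblast-like nuclei had 158 CPM, chondrocyte-like nuclei 139 CPM, IIFC/osteoblast-like nuclei 92.6 CPM and SSPC-like nuclei 41.8 CPM, against 12.7 CPM in myogenic and 8.91 CPM in endothelial-like nuclei. The order of the first 3 did not hold in each library, and IIFC-like nuclei were the highest at a clustering resolution of 0.8 (439 CPM) or with no integration (400.1 CPM). At day 5 the osteoblast-like and IIFC-like levels were 495 (409 to 594) and 532 (506 to 558) CPM, whose intervals overlap, while at day 7 they were 1338 and 198 CPM, the former from 32 UMIs in 23 nuclei. IIFC-like nuclei exceeded SSPC-like, endothelial-like and myogenic nuclei in 5 of 5 libraries, and tendon-like nuclei exceeded SSPC-like nuclei in 3 of 3.

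**Figure D1:**
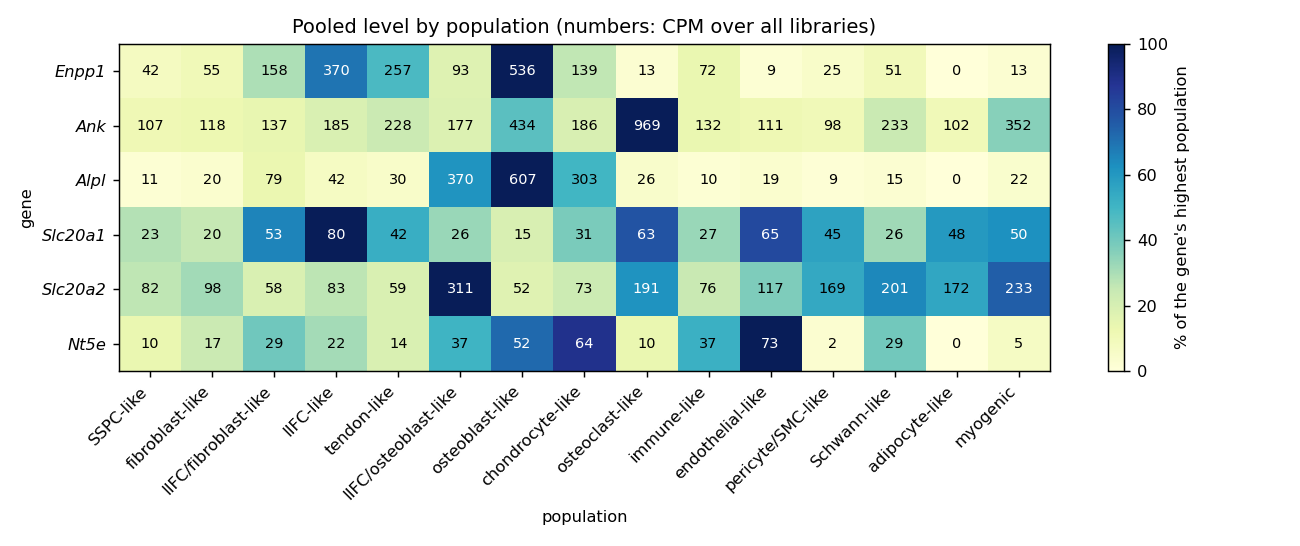
Level of 6 of the 7 genes (rows) in each population (columns), pooled over the libraries; printed numbers are CPM, and the shade is the percent of the same gene's highest population, so shades compare populations and not genes. Enpp1 is darkest in osteoblast-like (536), IIFC-like (370) and tendon-like (257) nuclei, Alpl in osteoblast-like (607) and IIFC/osteoblast-like (370) nuclei, and Ank in osteoclast-like nuclei (969).

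Within IIFC-like nuclei Enpp1 was detected at 16.3, 103, 110, 532 and 198 CPM in uninjured 2, the day 3 libraries, day 5 and day 7, from 2, 25, 116, 1642 and 131 UMIs. The first uninjured library had 7 such nuclei and no Enpp1 UMI. The day 5 library stood above the others, with the transcript in 324 of 505 IIFC-like nuclei (64.2%) and at most 85 UMIs in 1 nucleus. Within the IIFC-like nuclei, the cluster led by Brinp3, Ltbp2 and Tnc (748 nuclei) had 463 CPM and the cluster led by Brinp1, Pdzrn4 and Igf1 (273 nuclei) had 117 CPM. The former was at 671 CPM at day 5 and at 236 CPM at day 7. SSPC-like nuclei had no Enpp1 UMI in 51 nuclei of uninjured 1, which allows up to 30.2 CPM, and had 8.24, 87.6, 36.7, 81.0 and 93.1 CPM in the other libraries. The fracture libraries were thus the higher in SSPC-like nuclei as well, but the nuclei under that name differed before and after fracture. Their IIFC markers together stood at 2203 and 3215 CPM in the uninjured libraries and at 4669, 7501, 7897 and 6013 CPM after fracture. The part of this difference in the Enpp1 values was not tested.

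Day 3 was compared with the uninjured periosteum on UMIs summed per library, the only time point with replicates. Over all stromal nuclei Enpp1 stood at 59.5, 32.1, 92.8, 94.8, 362 and 176 CPM. The day 3 levels exceeded both uninjured ones, by 1.15 on the log2 scale (SE 0.447), which did not pass edgeR's quasi-likelihood test (adjusted p = 0.168). Of the 13 Enpp1 UMIs in stromal nuclei of uninjured 1, 12 lay in osteoblast-like, IIFC/osteoblast-like or chondrocyte-like nuclei, and 10 of them in a single chondrocyte-like nucleus. In uninjured 2, 36 of 53 lay in those populations, with 23 in the 10 osteoblast-like nuclei and 16 of these in 1 nucleus. Most Enpp1 UMIs of the uninjured stroma thus came from these 3 populations. They were 11 of 119 stromal nuclei in uninjured 1 and 97 of 364 in uninjured 2.

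With those 3 populations left out, Enpp1 stood at 4.78, 12.3, 88.2, 93.5, 436.5 and 189 CPM, from 1, 17, 35, 171, 1871 and 186 UMIs. The 2 uninjured libraries lay below all 4 fracture libraries. The sum without those populations was an alternative to the planned one over all stromal nuclei, where Enpp1 did not pass. It left out 12 of 13 and 36 of 53 uninjured Enpp1 UMIs, but 7 of 42 and 27 of 198 at day 3. Within it the day 3 level was higher by 3.08 on the log2 scale (SE 0.522, edgeR adjusted p = 0.0121). Of 9409 genes tested there, 8.55% were called in either direction. DESeq2 gave 3.14 (adjusted p = 0.00235), and without any 1 library the value lay between 2.80 and 4.13 and remained past the threshold. In the sum over all nuclei but the myogenic ones it was 1.74 (SE 0.347, adjusted p = 0.0391). Composition moved with this result: IIFC-like nuclei were 5.88% and 7.69% of stromal nuclei in the uninjured libraries and 55.9% and 49.3% at day 3, and the IIFC markers together stood at 1781 and 3726 against 4462 and 8501 CPM in stromal nuclei. Their part in the rise was not tested. At days 5 and 7, with 1 library each, there was no test. IIFC-like nuclei then held 75.2% and 47.0% of the stromal Enpp1 UMIs.

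**Figure D2:**
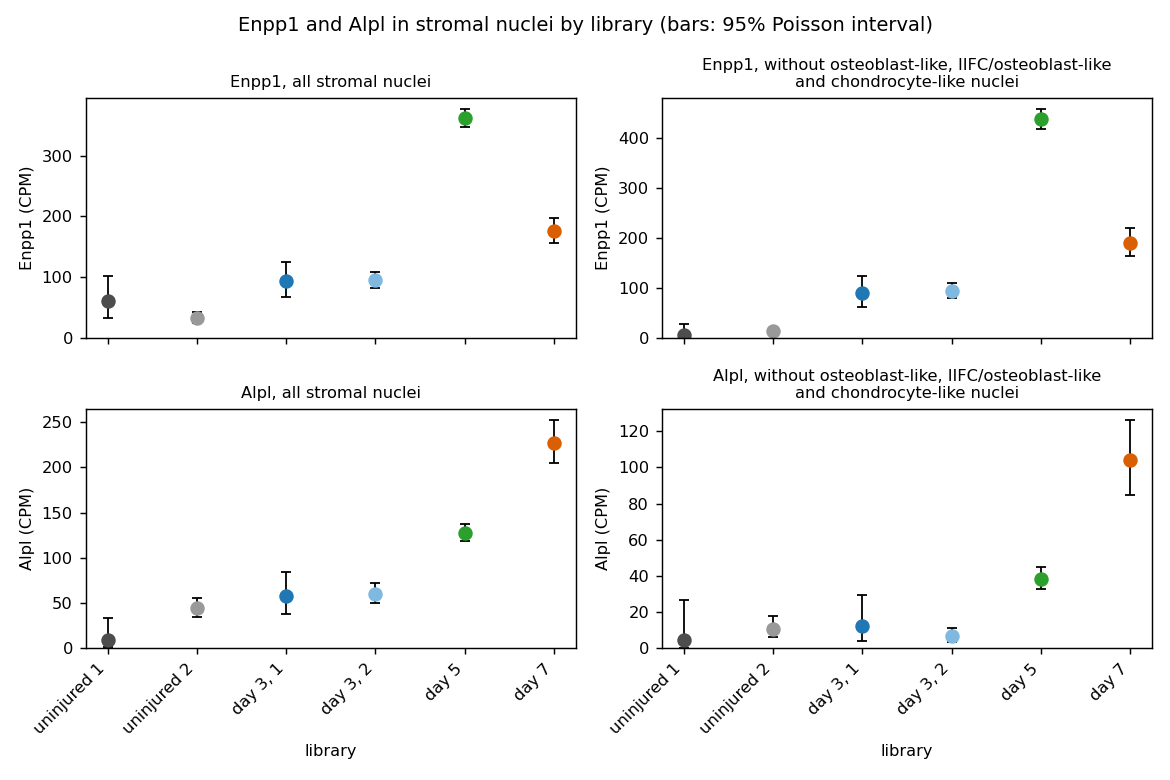
Enpp1 (top) and Alpl (bottom) in stromal nuclei, CPM on linear axes, 1 point per library with its exact 95% Poisson interval; the right-hand panels leave out osteoblast-like, IIFC/osteoblast-like and chondrocyte-like nuclei. On the right, Enpp1 is at 4.78 and 12.3 CPM in the uninjured libraries and at 88.2 CPM or more after fracture, with the highest point at day 5, whereas Alpl is highest at day 7.

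Immune-like nuclei also held Enpp1, at 0, 23.8, 62.2, 72.3, 90.5 and 126 CPM (72.4 CPM pooled), higher in all 4 fracture libraries than in the uninjured ones. The log2 difference at day 3 was 2.09 (SE 0.830), which did not pass (edgeR adjusted p = 0.341). Without uninjured 2 it was called, but that fit leaves a single uninjured library with no Enpp1 UMI and called many other genes too. None of 6561 genes passed in the main edgeR fit (percent called 0), against 893 at an unadjusted p under 0.05 and 394 adjusted by DESeq2. Pooled over libraries, the highest immune level was 108 CPM, in the cluster led by Hpgds and Mrc1, with 84.4, 115, 115 and 126 CPM from day 3 to day 7. The order differed between libraries: the cluster led by Csf3r and Sorl1 was at 85.3, 26.3, 462 and 170 CPM in the same libraries, from 3, 9, 11 and 16 UMIs. In droplet data free RNA from other cells adds UMIs, so the 6 IIFC markers were counted beside it. The cluster led by Hpgds and Mrc1 had 3.11, 2.24, 5.57 and 4.60 IIFC-marker UMIs per Enpp1 UMI in those libraries. IIFC-like nuclei had 42.6, 82.9, 24.7 and 33.6. Endothelial-like nuclei, with little Enpp1, had 44.5, 74.5 and 28.3 in the last 3 of these libraries, from 10, 11 and 3 Enpp1 UMIs. The ratio in the Mrc1 cluster was lower than in either population in each library compared. It was low as well in the immune-like cluster led by Arg1 and Hmox1, at 3.00, 6.64, 7.07 and 3.83. The part of free RNA in the immune Enpp1 UMIs was not tested.

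Ank differed from Enpp1 in where it was found. It had 6987 UMIs in 30.2% of nuclei, and 46.2% of the UMIs lay in myogenic nuclei. The highest pooled level was in osteoclast-like nuclei, the bone-resorbing cells, at 969 CPM (862 to 1087). It came to 1323 CPM at day 5, from 202 UMIs in 23 of 27 nuclei, and to 1531 CPM at day 7, from 64 UMIs in 15 of 21 nuclei. In both libraries this was above every other population with at least 20 nuclei. The earlier libraries had 3 to 15 osteoclast-like nuclei each, with 831, 482, 472 and 180 CPM from 2 to 15 UMIs. Osteoblast-like nuclei came next at 434 CPM, with 448 at day 5 and 334 at day 7. In the remaining stromal populations the pooled Ank level ran only from 107 CPM (SSPC-like) to 228 CPM (tendon-like). Among endothelial-like nuclei the cluster led by Mmrn1 and Prox1, genes of lymphatic vessels, had 312 CPM, with 319 in uninjured 2 and 558 at day 5.

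Myogenic nuclei had Ank at 895, 630, 227, 201, 206 and 237 CPM. Both uninjured libraries were above all 4 fracture libraries, and myogenic nuclei exceeded SSPC-like, endothelial-like and immune-like nuclei in 6 of 6 libraries. The log2 difference at day 3 was -1.90 (SE 0.396). It missed the threshold in edgeR (adjusted p = 0.0533), with 2.81% of 10037 genes called, and passed in DESeq2 (-1.89, adjusted p = 0.000677). Without uninjured 1 the edgeR value was -1.61 (adjusted p = 0.238), and without each other library it passed. Stromal Ank was at 105, 191, 212, 122, 193 and 154 CPM, with overlapping groups and a log2 difference of 0.14 (SE 0.445, adjusted p = 0.908). The difference between the myogenic and the stromal change was -1.98 (SE 0.449, edgeR interaction with the library as a block, adjusted p = 0.00348, 6.28% of 12268 genes called), in a fit added after the values had been seen. Muscle-fiber transcripts moved with it: Ttn, the giant sarcomere protein, was at 40584, 42866, 18208, 14726, 8401 and 25584 CPM in the same nuclei, Myh4 at 1439, 2275, 149, 437, 225 and 730, and Ckm at 886, 708, 91.6, 237, 213 and 140.4. Pax7, the satellite-cell marker, was at 60.1, 73.9, 13.9, 81.8, 114 and 21.1 CPM, with no such split. The mix of muscle nuclei and its part in the Ank values was not tested.

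**Figure D3:**
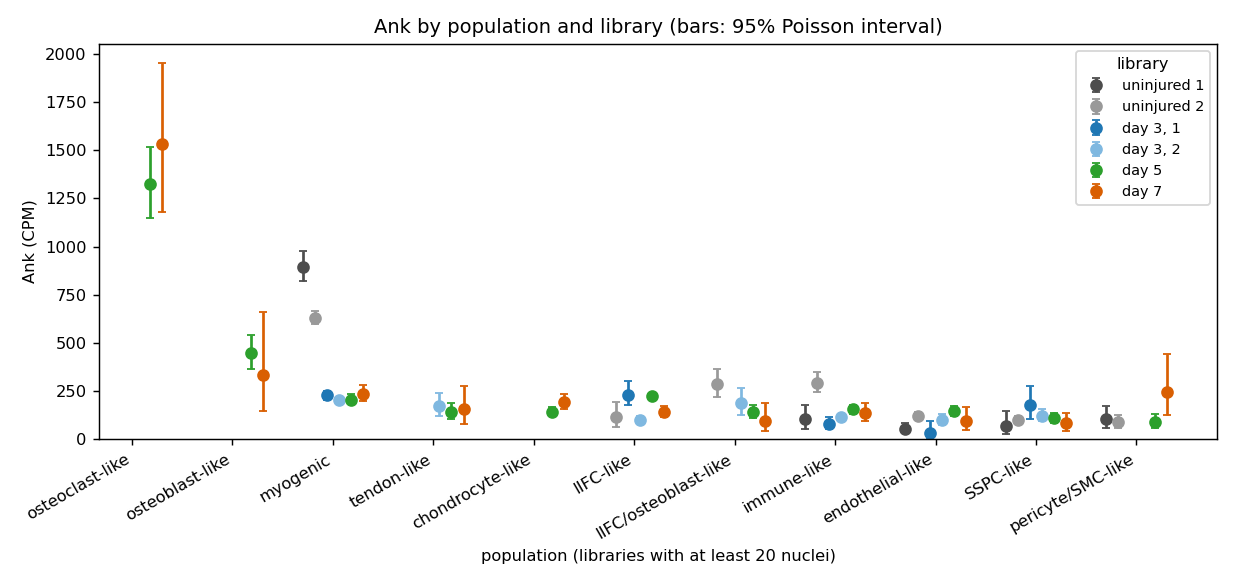
Ank in each population, CPM on a linear axis, 1 point per library with at least 20 nuclei and its exact 95% Poisson interval. Osteoclast-like nuclei at days 5 and 7 (1323 and 1531 CPM) are the highest, and among myogenic nuclei the uninjured libraries (895 and 630 CPM) lie apart from the fracture libraries (201 to 237 CPM).

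Alpl marked the skeletal end of the stroma. It had 1708 UMIs in 9.63% of nuclei, and 79.6% of them lay in stromal nuclei. Osteoblast-like nuclei had 607 CPM (525 to 697), IIFC/osteoblast-like nuclei 370 CPM (334 to 409) and chondrocyte-like nuclei 303 CPM (276 to 331). IIFC-like nuclei had 41.8 CPM and SSPC-like nuclei 11.2 CPM. Osteoblast-like nuclei were at 698 CPM at day 5 and 376 CPM at day 7, the latter from 9 UMIs. At day 7 they did not differ beyond counting error from the IIFC/osteoblast-like nuclei at 388 CPM. Chondrocyte-like nuclei had 266 CPM (234 to 301) at day 5 and 438 CPM (381 to 500.0) at day 7, from 251 and 217 UMIs.

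IIFC/osteoblast-like nuclei carried Alpl before injury. The level was 246 CPM in uninjured 2, where 27 of 75 such nuclei had a UMI, and 569, 344 and 388 CPM in day 3 replicate 2, day 5 and day 7. It was above that of IIFC-like, SSPC-like, endothelial-like, immune-like and myogenic nuclei in 4 of 4 libraries. IIFC-like nuclei had Alpl at 32.7, 8.27, 4.76, 41.5 and 117 CPM from uninjured 2 to day 7, from 4, 2, 5, 128 and 77 UMIs, so the day 7 library was the highest. Over all stromal nuclei Alpl was at 9.16, 44.3, 57.4, 60.3, 128 and 228 CPM. Day 3 did not differ from uninjured beyond the spread (log2 difference 0.86, SE 0.569, adjusted p = 0.446). Without uninjured 2 it was 2.64 (adjusted p = 0.0477), since uninjured 1 had 2 Alpl UMIs. The share of osteoblast-like, IIFC/osteoblast-like and chondrocyte-like nuclei moved with the level, at 9.24%, 26.6%, 15.9%, 14.0%, 30.4% and 37.7% of stromal nuclei, and with them left out Alpl was at 4.82, 10.9, 12.6, 6.56, 38.5 and 104 CPM. Outside the stroma, the endothelial-like cluster led by Gja5 and Sema3g, genes of arterial endothelium, had Alpl at 109 and 98.5 CPM in the uninjured libraries. The level there was 112 CPM in day 3 replicate 2 (7 UMIs in 6 nuclei) and 14.3 CPM at day 5 (1 UMI in 20 nuclei), against 7.42 CPM pooled in the cluster led by Vwf and Selp.

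Alpl UMIs per Enpp1 UMI set the transcripts of the 2 opposing enzymes side by side. Protein and enzyme activity were not measured. The ratio is not corrected for gene length, so it was compared between populations only. The ratio was 0.113 (95% interval 0.0975 to 0.130) in IIFC-like, 0.117 (0.0716 to 0.182) in tendon-like and 0.269 (0.171 to 0.412) in SSPC-like nuclei. It was 1.13 (0.919 to 1.40) in osteoblast-like, 2.19 (1.86 to 2.58) in chondrocyte-like and 4.00 (3.20 to 5.04) in IIFC/osteoblast-like nuclei. Pooled over the libraries, each of the first 3 intervals lay below each of the latter 3. For osteoblast-like nuclei this did not hold at day 7. IIFC-like nuclei were at 2.0 in uninjured 2 (4 Alpl and 2 Enpp1 UMIs, interval 0.287 to 22.1) and at 0.0800, 0.0431, 0.0780 and 0.588 in the day 3, day 5 and day 7 libraries. The day 7 interval (0.438 to 0.785) lay above those of the day 3 and day 5 libraries and within that of uninjured 2. SSPC-like nuclei were at 0.750 in uninjured 2 (6 Alpl and 8 Enpp1 UMIs) and between 0.111 and 0.5 in the later libraries, with overlapping intervals. IIFC/osteoblast-like nuclei were at 9.17, 6.85, 2.80 and 8.25 in uninjured 2, day 3 replicate 2, day 5 and day 7. Chondrocyte-like nuclei were at 1.96 and 3.81 at days 5 and 7. Osteoblast-like nuclei were at 1.41 (1.10 to 1.80) at day 5 and 0.281 (0.118 to 0.603) at day 7, intervals that did not overlap. Their day 7 interval overlapped those of tendon-like (0.261), SSPC-like (0.5) and IIFC-like (0.588) nuclei in the same library.

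**Figure D4:**
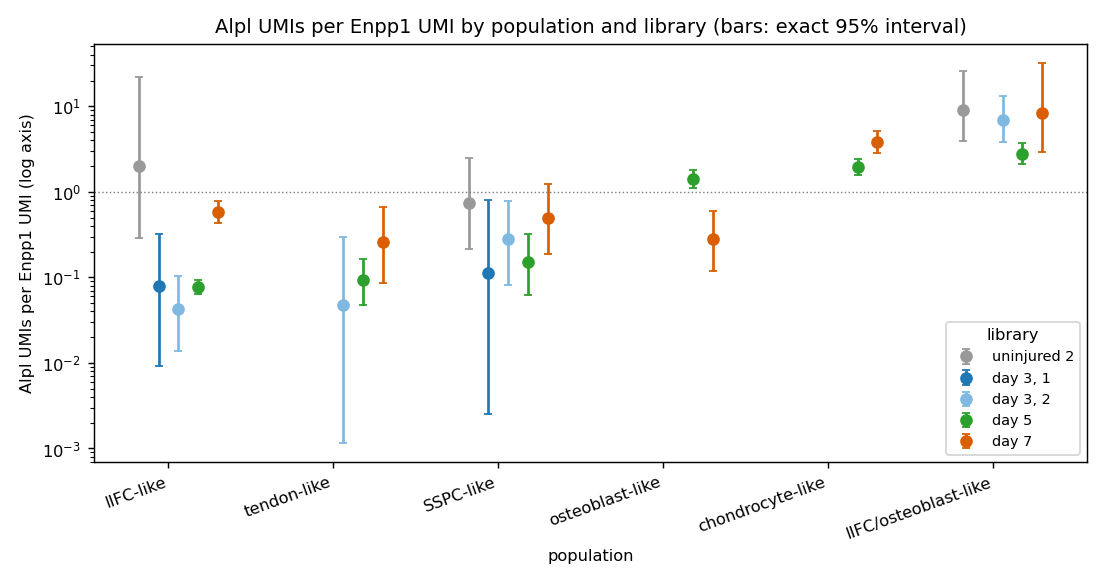
Alpl UMIs per Enpp1 UMI on a log axis, for 6 stromal populations, 1 point per library with at least 20 such nuclei and a UMI of either gene, with its exact 95% interval; the dotted line marks equal UMI counts, not equal levels per length. IIFC-like, tendon-like and SSPC-like points lie below the line (0.0431 to 0.750) except for IIFC-like nuclei of uninjured 2 (2.0, from 6 UMIs of both genes), IIFC/osteoblast-like and chondrocyte-like points above it (1.96 to 9.17), and osteoblast-like nuclei have 1 point on each side.

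Phospho1 was close to undetected. It had 2 UMIs in all barcodes and 1 in the nuclei retained, in an immune-like nucleus at day 3. There was none in 129 osteoblast-like nuclei, which allows up to 9.24 CPM, nor in 411 chondrocyte-like nuclei, which allows up to 1.93 CPM. Lower levels were not detectable at this depth, and the gene was not tested.

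The 2 phosphate transporters had different distributions. Slc20a1 (PiT-1) had 80.4 CPM (72.9 to 88.6) in IIFC-like and 65.3 CPM (56.5 to 75.1) in endothelial-like nuclei. These neighbours did not hold their order, endothelial-like nuclei being higher in 4 of 5 libraries. In endothelial-like nuclei Slc20a1 stood at 42.8, 21.0, 108, 76.2, 115 and 134 CPM, all 4 fracture libraries above both uninjured ones, with a log2 difference at day 3 of 1.45 (SE 0.552) that did not pass (edgeR adjusted p = 0.203, 4.14% of 6588 genes called). The endothelial-like cluster led by Adgrl4 and Kit had the highest level, 114 CPM. In stromal nuclei the log2 difference was 1.04 (SE 0.831, adjusted p = 0.546). It rested on uninjured 1 (59.5 CPM) against uninjured 2 (11.5 CPM): without the former it was 2.25 (adjusted p = 0.0176) and without the latter -0.09.

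Slc20a2 (PiT-2) had 4482 UMIs, of which 47.6% lay in myogenic nuclei. Their level was 287, 162, 246, 238, 306 and 207 CPM, above SSPC-like, endothelial-like and immune-like nuclei in 6 of 6 libraries, with no split between uninjured and fracture (log2 difference 0.04, SE 0.394, adjusted p = 0.976). The highest pooled level, 311 CPM (278 to 346), was in IIFC/osteoblast-like nuclei, with 501, 358, 269 and 35.3 CPM in uninjured 2, day 3 replicate 2, day 5 and day 7. They were above myogenic nuclei in 2 of 4 libraries, and at resolution 0.8 or with no integration the highest level was in osteoblast-like nuclei (264 and 287 CPM). The pericyte/SMC-like cluster led by Myh11 and Ryr2 had 209 CPM. Osteoblast-like nuclei had 52.3 CPM. In stromal nuclei as a whole the log2 difference at day 3 was -0.47 (SE 0.341, adjusted p = 0.495).

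Of the 838 UMIs of Nt5e (CD73), 38.4% lay in stromal nuclei, which held 37.0% of all UMIs, 28.8% in immune-like nuclei, which held 19.8%, and 26.3% in endothelial-like nuclei, which held 9.34%. Endothelial-like nuclei had 72.6 CPM (63.3 to 82.8), chondrocyte-like nuclei 64.4 CPM (52.4 to 78.4), whose intervals overlap, and myogenic nuclei 4.58 CPM. Endothelial-like nuclei had 188, 66.4, 64.9, 34.1, 66.0 and 7.88 CPM, with a log2 difference at day 3 of -1.65 (SE 0.659) that did not pass (edgeR adjusted p = 0.226) and that was called without uninjured 2 (-2.32, adjusted p = 0.00120). The groups nearly touched, and the highest value came from uninjured 1. The cluster led by Vwf and Selp, genes of venous endothelium, had 125 CPM (107 to 146), and the cluster led by Gja5 and Sema3g had 6.96 CPM (1.43 to 20.3), the reverse of Alpl. In the former, 33 of 68 nuclei of uninjured 1 had a UMI. Among immune-like nuclei the cluster led by Arg1 and Hmox1 had 82.1 CPM. In stromal nuclei the log2 difference was -1.17 (SE 0.817, adjusted p = 0.476).

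**Figure D5:**
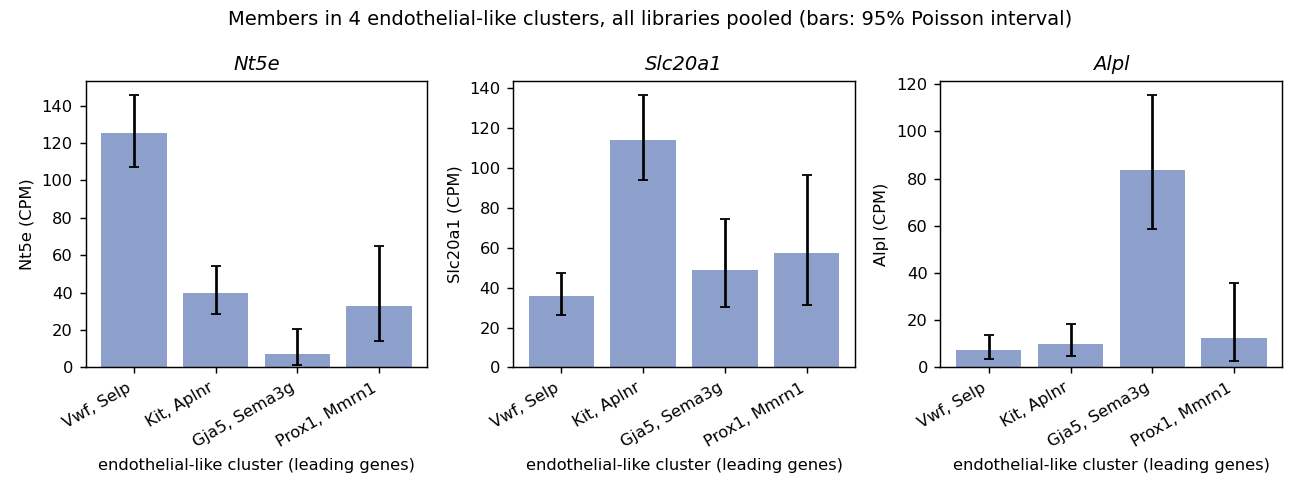
Nt5e, Slc20a1 and Alpl in 4 endothelial-like clusters, named by leading genes; bars are CPM pooled over the libraries on axes from 0, with exact 95% Poisson intervals. Each gene is highest in another cluster: Nt5e with Vwf and Selp (125 CPM), Slc20a1 with Kit and Aplnr (114 CPM) and Alpl with Gja5 and Sema3g (83.5 CPM).

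None of the 6 genes tested in the sum over all stromal nuclei was called at day 3, where 8.39% of 9934 genes were. At an unadjusted p under 0.05 there was 1, Enpp1, and DESeq2 called 0. In endothelial-like nuclei 0 of 5 were called by edgeR and by DESeq2, with 2 at an unadjusted p under 0.05 (Slc20a1 and Nt5e). In myogenic nuclei 0 of 5 were called by edgeR, with 1 at an unadjusted p under 0.05, and 1 by DESeq2 (Ank in both cases). In immune-like nuclei 0 of 6 were called by edgeR and by DESeq2, with 2 at an unadjusted p under 0.05 (Enpp1 and Slc20a1). Over all genes, edgeR gave an unadjusted p under 0.05 for 2150 of 9934 in stromal and 1202 of 6588 in endothelial-like nuclei. It did so for 1913 of 10037 genes in myogenic and 893 of 6561 in immune-like nuclei. In the same order edgeR called 8.39%, 4.14%, 2.81% and 0% of genes, and DESeq2 called 753, 242, 643 and 394 genes. Pericyte/SMC-like nuclei were too few at day 3 to be fitted. The p-values measure the spread between 2 pooled libraries a group.

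The wider pathway was described through 3 lists. Of 15 genes of extracellular nucleotide and adenosine handling, 8 were tested in stromal nuclei. None was called by edgeR at day 3, where 8.39% of all 9934 genes tested were called. At an unadjusted p under 0.05 there were 3 of the 8, against 2150 of all 9934 genes. Their median log2 difference was -0.10, against 0.05 over all genes. Their stromal examples were skeletal: Panx3, an ATP-releasing channel, had 218 CPM in chondrocyte-like and 212 CPM in osteoblast-like nuclei, and the ectonucleotidase gene Entpd3 had 154 CPM in osteoblast-like nuclei. Entpd1 (CD39), which makes the AMP that CD73 uses and is named after its values were seen, was at 1155 CPM in endothelial-like, 584 CPM in pericyte/SMC-like and 489 CPM in immune-like nuclei, against at most 42.6 CPM in a stromal population.

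Of 11 genes of phosphate transport and its regulation, 4 were tested and none was called by edgeR, against the same 8.39%. At an unadjusted p under 0.05 there was 1 of the 4, against the same 2150 of 9934 genes, and the median log2 difference was -0.44. Osteoblast-like nuclei had the highest pooled stromal level of Phex (939 CPM), Galnt3 (342 CPM), Dmp1 (228 CPM) and the FGF receptor gene Fgfr1 (724 CPM). Of their 305 Phex UMIs 298 came from day 5, as did 60 of their 74 Dmp1 UMIs. At day 7 they had 3 Phex UMIs in 23 nuclei, and chondrocyte-like nuclei had 97 in 213. The phosphate exporter gene Xpr1 was highest in osteoclast-like nuclei, at 3822 CPM, against 206 CPM in tendon-like nuclei, the highest stromal value, so that Xpr1 and Ank had their highest level in the same population.

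Of 12 genes of mineral-binding matrix proteins and matrix vesicles, 8 were tested and 1 was called, against 8.39% over all genes: Ibsp, bone sialoprotein, rose at day 3 by 2.17 on the log2 scale (SE 0.460, edgeR adjusted p = 0.0207), from 18.3 and 19.4 to 61.9 and 113 CPM in stromal nuclei. The list's median log2 difference was 0.43. Ibsp is also an osteoblast naming marker. Of the 33 Ibsp UMIs in all nuclei of day 3 replicate 1, 27 lay in 8 IIFC/osteoblast-like nuclei. In replicate 2, 151 of 336 lay in 7 osteoblast-like and 50 in 25 IIFC/osteoblast-like nuclei. The stromal level at day 3 thus rested largely on few nuclei. Osteoblast-like nuclei had the highest level of Smpd3 (2236 CPM), a sphingomyelinase needed for mineralization, of Ibsp (2146 CPM), of Sparc (1758 CPM) and, within the stroma, of Spp1 (413 CPM). The annexin genes Anxa2 and Anxa6 were highest within the stroma in chondrocyte-like nuclei (226 and 104 CPM), Anxa5 in tendon-like nuclei (137 CPM), and Mgp, a calcification inhibitor, in tendon-like nuclei (119 CPM).

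The genes whose levels ran most alike over 55 sums of a population in a library, among 10266 genes, were named for each gene by Pearson's r on log2(CPM + 10), which shares library, depth and the clustering and carries no test. For Alpl they were Sp7 (r = 0.81), the osteoblast transcription factor that was also a naming marker, Dlx6os1 (0.81), Slc13a5 (0.80), a citrate transporter gene, Rab27b (0.79) and Panx3 (0.78). For Enpp1 they were 5730522E02Rik (0.76), Gm13832 (0.76), Tnn (0.76), Wisp1 (0.75) and Chsy3 (0.75), of which Tnn encodes the matrix protein tenascin-W. For Ank they were Atp2c1 (0.69), Abcb4 (0.67), Chchd3 (0.66), Pld5 (0.62) and Wdr7 (0.62). For Nt5e they were Ctnnb1 (0.71), Adgrg6 (0.71), Sh3bp4 (0.66), Eps8l2 (0.65) and Lrrc1 (0.65). For Slc20a2 the highest were Dnaja2, Dag1 and Dtna (0.61, 0.60 and 0.60), the latter 2 encoding parts of the muscle dystrophin complex, and for Slc20a1 the highest was Zfp57 (0.53). No list held another of the 7 genes. Between them the highest values were 0.47 for Alpl with Enpp1 and 0.47 for Alpl with Nt5e, and the lowest -0.43 for Enpp1 with Slc20a2.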

How the data were processed

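Single-nucleus RNA-seq of 6 libraries was analysed from the gene by barcode matrices. The deposited values are raw UMI counts, not normalized, which the authors made with Cell Ranger (6.0.0 for uninjured 1, day 5 and day 7, and 7.1.0 for the other 3, per the file headers), counting intronic and exonic reads on mm10. Version and group were thus partly shared, and both day 3 libraries used 7.1.0. No UMI of a gene outside the 30406 shared genes was used.

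A nucleus was retained if it had between 200 and 5000 genes detected and if mitochondrial genes gave less than 2%, and ribosomal genes less than 1.5%, of its UMIs, which are the study's own limits. Myogenic nuclei, which the study removed, were set apart from clusters of each library and once more after integration, and were described separately. The rest were integrated by CCA in Seurat 5.3.0 and clustered at resolution 1.3, with the 7 genes, the markers and the pathway lists left out of the features. Clusters were named by their highest mean marker level; a second name within 0.5 (log2) was kept. Scrublet, in scanpy 1.11.5, marked 2, 1, 7, 0, 95 and 1 of the nuclei retained as doublets; they were kept in the main result. The margin, the second myogenic step and keeping doublets were decided with the data in view.

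UMIs were summed per library and population and tested, 2 day 3 against 2 uninjured libraries, two-sided, with edgeR 4.0.16 (filterByExpr, TMM, quasi-likelihood F-test, Benjamini-Hochberg adjusted p under 0.05 over all genes tested; R 4.3.3) after a check on simulated counts. DESeq2 1.42.0, other size factors, no filter, other sums of nuclei, removal of doublets, no integration, another resolution, a looser nucleus filter and leaving out each library were alternatives. No test was made between populations, since the same nuclei defined them, and a library entered a population's range with at least 20 nuclei. A 0 was given with the level that 3 counts allow. All 7 genes were named; of the 3 pathway lists, genes called in the stromal fit or reaching 100 CPM in a stromal population; and the 5 genes most alike to each. Members and lists were chosen with earlier results of these data known. Promoter windows are from RefSeq (GRCm38.p6); 6 of the 7 genes had one. The labels' protocol names a human reference, but every gene identifier in the files is of mouse.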

Additional observations from a re-analysis of the deposited data

Results flagged for a closer look

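Ank changed differently in myogenic and in stromal nuclei at day 3: the myogenic log2 change minus the stromal one was -1.98 (SE 0.449, adjusted p = 0.00348, edgeR interaction over 12268 genes with the library as a block, added after the values had been seen). The myogenic change itself missed the threshold in edgeR (-1.90, adjusted p = 0.0533), and without uninjured 1 it was -1.61 (adjusted p = 0.238). Both uninjured libraries stood above both day 3 libraries in myogenic nuclei (895 and 630 against 227 and 201 CPM), while the stromal groups overlapped (105 and 191 against 212 and 122 CPM). The same difference for Alpl was -2.06 (SE 0.656) and missed the threshold (adjusted p = 0.0513).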

How the results depend on the processing

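The number of genes called in stromal nuclei was 833, and 1385 with no filter on low counts, where more genes were tested; without a replicate it ran from 874 to 1178. Of the 7 genes, 0 were called in stromal nuclei, but 1 (Enpp1) in the sum over all nuclei but myogenic ones and 1 (Enpp1) without osteoblast-like and chondrocyte-like nuclei, and 0 to 1 without a replicate. In immune-like and in endothelial-like nuclei the range without a replicate was 0 to 1, in myogenic nuclei 0 to 2 with 1 by DESeq2, and in stromal nuclei without the skeletal populations 1 to 2. Each of these fits tested 4 to 6 of the 7 genes. With both replicates kept, edgeR called 8.39% of all genes tested in stromal nuclei and 8.55% without the skeletal populations. It called 0% in immune-like, 4.14% in endothelial-like and 2.81% in myogenic nuclei, where DESeq2 called 643 of 10037. Without a replicate 1 group had a single library and the number of all genes called changed too, so those counts carry no conclusion. The highest population changed with the clustering: Enpp1 was highest in IIFC-like nuclei at resolution 0.8 (439 CPM), with no integration (400.1) and with IIFC/osteoblast-like nuclei counted as osteoblast-like (370.5). Slc20a2 was highest in osteoblast-like nuclei at resolution 0.8 (264 CPM), with no integration (287), under the looser nucleus filter (244) and with the merged name (250.1). Ank was highest in osteoclast-like nuclei also as a mean over libraries (1427 CPM), and in myogenic nuclei (351 CPM) with no integration, where no cluster was named osteoclast-like. Slc20a1 was highest in endothelial-like nuclei by the mean over libraries (82.9), and Nt5e in a myogenic/immune cluster under the looser filter (71.9). Without each library in turn the highest level ran from 611 to 1268 CPM for Ank, from 400.2 (IIFC/osteoblast-like, without day 5) to 635 for Alpl, from 53.1 to 93.2 for Slc20a1 and from 61.4 to 83.6 for Nt5e. Log2 differences that turned sign without a replicate were, in stromal nuclei, Ank (-0.48 to 0.66) and Slc20a1 (-0.093 to 2.25); without the skeletal populations, Ank (-0.16 to 1.08); in immune-like nuclei, Nt5e (-1.32 to 1.97); in endothelial-like nuclei, Ank (-1.48 to 0.28); and in myogenic nuclei, Enpp1 (-0.085 to 7.26), Slc20a1 (-0.74 to 0.37) and Slc20a2 (-0.33 to 0.52). The cause of these changes was not tested. DESeq2 and the left-out replicates outside the stromal sum, and the merged osteoblast name, were chosen after seeing the data. No paired analysis was possible because the labels give no replicate numbers.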
